A study of Mus musculus with 3 samples.

Results

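Receptors for ligands that constrict or relax vessels and airways were examined in RNA from sorted lung cells labelled as smooth muscle. The module holds 73 protein-coding genes of 48709 genes in the table, taken by symbol and not by level. The symbols are those of adrenergic, endothelin, angiotensin, muscarinic, serotonin, vasopressin, oxytocin, histamine, adenosine, bradykinin, cysteinyl leukotriene, P2X and P2Y receptors. Receptors for prostaglandins, prostacyclin and thromboxane were also taken. A receptor listed under a symbol outside the rule, such as P2ry10b, is not a member. One member, Agtrap, binds the angiotensin receptor and is not itself a receptor. The symbols took 63 G protein-coupled receptors and 9 ligand-gated ion channels besides. There were 3 libraries in 1 group, WT, and no other group. The mice bore an inducible Cre (creERT2) under smooth muscle actin together with tdTomato, received 75 mg/kg tamoxifen on 10 consecutive days from an age of 8 weeks, and were killed 2 months later. Their lungs were digested and the cells sorted. The sources used here do not give the gate, and nothing in the labels says that the libraries came from separate animals, so the spread between them may be technical.

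Smooth muscle tone is set by the balance of these receptors. Those coupled to Gq release stored calcium and constrict, those coupled to Gs raise cyclic AMP and relax, those coupled to Gi lower cyclic AMP, and P2X receptors and serotonin-gated channels pass cations directly. Many of the same genes also serve leukocytes, endothelium and nerves. The smooth muscle actin promoter is used by pericytes and myofibroblasts as well as by smooth muscle.

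Library totals were 18896263, 18355813 and 16877297 counts in libraries 1, 2 and 3. Of 14 contractile markers, 13 had a mean of at least 1 CPM (counts per 1000000 counts of the library). Their summed level was 214, 259 and 226 CPM. Tagln, the highest of them in TPM, had 377, 375 and 274 counts, Myh11 382, 591 and 347 and Acta2 211, 313 and 191. The lowest of the 14, Cnn1, a calponin of differentiated smooth muscle, had 0, 7 and 5 counts. All 15 lymphocyte markers had a mean of at least 10 CPM, and they summed to 1927, 2276 and 2440 CPM. The lymphocyte sum thus exceeded the contractile sum in each library, so the RNA is that of a mixture although the label names smooth muscle. Airway epithelial markers summed to 13797, 2817 and 7932 CPM, of which Scgb1a1 alone held 13192, 2632 and 7641. Alveolar markers summed to 2296, 512 and 618 CPM. Endothelial markers summed to 883, 505 and 642 CPM, and myeloid markers to 976, 334 and 454 CPM, of which Lyz2 held 704, 189 and 235. Fibroblast markers summed to 430, 1011 and 965 CPM, and pericyte markers to 75.0, 131 and 104 CPM. In these sums library 1 was the highest in airway, alveolar, endothelial and myeloid markers and the lowest in contractile, pericyte and fibroblast markers. In such mixed RNA, fewer cells of a type and less RNA per cell cannot be told apart.

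Receptors of the module were mostly low. A mean of at least 1 CPM was reached by 28 of 73 members, or 38.4%, against 59.4% of 22005 nuclear protein-coding genes. A mean of at least 10 CPM was reached by 9 members, or 12.3%, against 35.8% of protein-coding genes, and 1 member, P2ry10, had over 100 CPM. No count in any library was found for 6 members, Agtr1b, Htr1f, Htr3a, Htr3b, Htr4 and Htr5b, or 8.22%, against 14.5% of protein-coding genes; 0 counts allow a level of up to 3 counts, equal to 0.159, 0.163 and 0.178 CPM in libraries 1, 2 and 3, for counting error only. A count in every library was found for 46 members, and the same share over protein-coding genes was not taken. All members together held 0.0424% (95% interval 0.0414 to 0.0433), 0.048% (0.047 to 0.049) and 0.0572% (0.0561 to 0.0584) of the counts of libraries 1, 2 and 3 (Wilson, counting error only). To compare genes of different length, levels were also expressed per kilobase of exon and scaled to 1000000 over nuclear protein-coding genes (TPM). The median member had 0.763 ± 0.0782 TPM and the median protein-coding gene 4.65 ± 0.312 TPM (SD, n = 3).

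Summed over the module, 54.4% ± 4.56 of the TPM belonged to P2ry10 alone. P2ry10, Ednrb, Ptger4 and Agtrap stood in this order of mean TPM, and their ranges over the libraries did not overlap. From Agtrap down to P2ry1, the range of each gene over the 3 libraries overlapped that of the next. Within libraries, the first of 4 such pairs was nonetheless the higher in each of the 3: P2rx7 over Adrb1, Ednra over Hrh2, P2ry14 over Ptgir and Avpr2 over Bdkrb1.

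**Figure D1:**
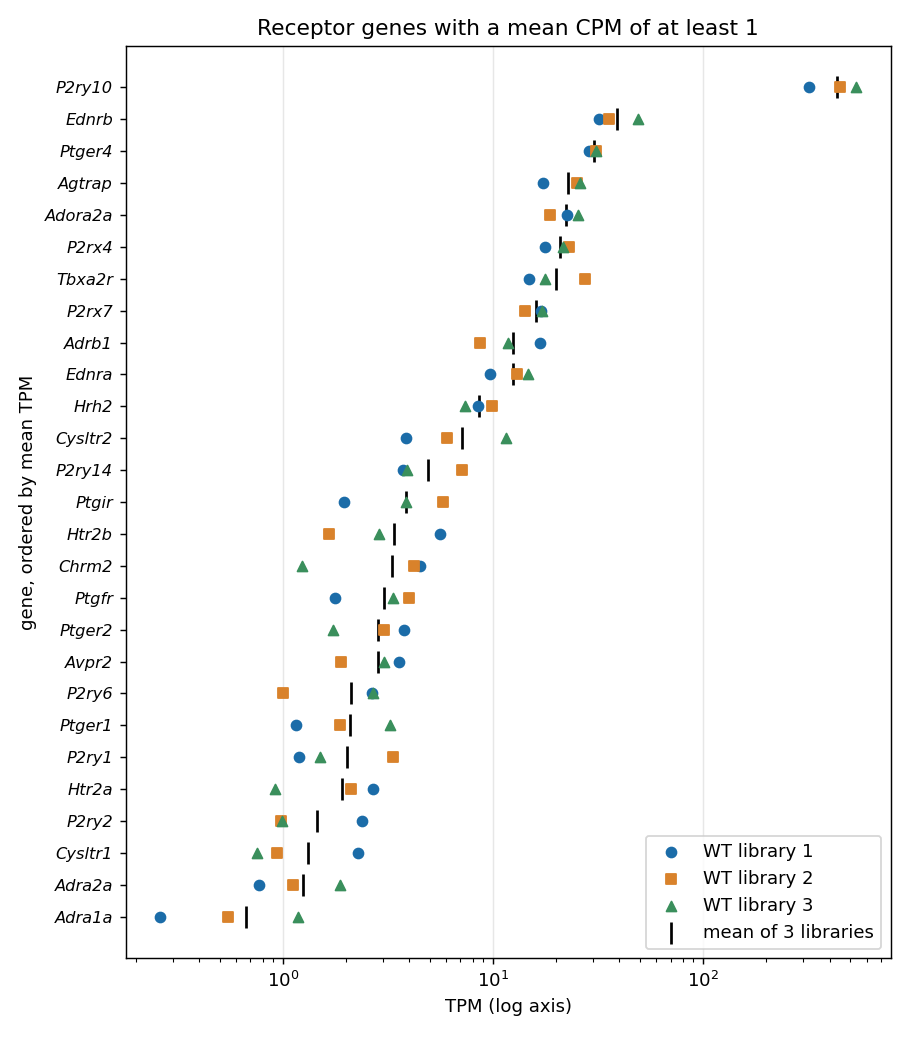
TPM on a log axis for 27 members that averaged 1 CPM or more, with 1 point per WT library and a bar at the mean. P2ry10 sits at 321 to 533 TPM, Ednrb at 31.9 to 49.1 TPM, and from Agtrap downward the points of neighbouring genes overlap.

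Among P2Y receptors, which answer to extracellular nucleotides, P2ry10 stood apart, and it is an exception in its ligand, being a receptor for lysophosphatidylserine that is best known from lymphocytes. P2ry10 (ENSMUSG00000050921, chromosome X, 107088492 to 107104974) had 3369, 4177 and 4923 counts, or 178, 228 and 292 CPM. It was highest in library 3 and lowest in library 1, an order in which the summed lymphocyte markers also lay. The B cell gene Ms4a1 (1474, 2022 and 2621 counts) had that order and the T cell gene Cd3e (2882, 2703 and 1655) the opposite one; the part of these cells in the level of P2ry10 was not tested. At 434 ± 106 TPM (SD, n = 3) it ranked 251 among 22005 protein-coding genes. It held 95.5%, 97.0% and 98.2% of the TPM of the P2Y family. Its neighbour P2ry10b, which the table lists as A630033H20Rik and which is therefore no member, had 17 ± 5.11 TPM; 3.79% of the 50-base words of P2ry10 occur in other genes, among them this one.

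P2ry14, a receptor for UDP-glucose, followed in CPM with 7.67, 13.5 and 7.94 CPM and was highest in library 2. P2ry1, an ADP receptor of platelets and endothelium, had 18, 45 and 20 counts, again with library 2 the highest; it shares 22.0% of its words with an antisense gene. P2ry2 and P2ry6, receptors for UTP and UDP, had 1.04 ± 0.615 and 1.11 ± 0.540 CPM. The ADP receptors P2ry12 and P2ry13, known from microglia, platelets and myeloid cells, had 23, 4 and 5 counts and 24, 8 and 1 counts. Both were highest in library 1, where 8 of 12 myeloid markers were also highest; their part in this was not tested. P2ry4 had 2 counts in all, both in library 3.

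Promoter sequence is shown for the highest member, P2ry10, and for Ednra, the endothelin receptor of smooth muscle, as RefSeq gives it for GRCm38.p6, from 250 bases before to 50 after the start that RefSeq gives, which for Ednra lies 12 bases from the start in the deposited table. Capitals mark TGTGGT, the letters that RUNX factors bind, searched on both strands. Also searched on both strands were the TATA box letters TATAAA, the ETS letters CCGGAA, the letters GGGCGG bound by Sp factors, the cyclic AMP response element TGACGTCA, and the CArG box of serum response factor. None of them overlaps another motif in these windows.
P2ry10, chrX:107088242-107088541, plus strand: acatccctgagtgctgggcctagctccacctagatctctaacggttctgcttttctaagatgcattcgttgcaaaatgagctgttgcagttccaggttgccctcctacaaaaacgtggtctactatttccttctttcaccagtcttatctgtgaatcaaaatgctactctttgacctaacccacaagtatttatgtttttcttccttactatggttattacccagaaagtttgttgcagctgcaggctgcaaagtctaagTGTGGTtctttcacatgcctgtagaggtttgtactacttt
Ednra, chr8:77724403-77724702, minus strand: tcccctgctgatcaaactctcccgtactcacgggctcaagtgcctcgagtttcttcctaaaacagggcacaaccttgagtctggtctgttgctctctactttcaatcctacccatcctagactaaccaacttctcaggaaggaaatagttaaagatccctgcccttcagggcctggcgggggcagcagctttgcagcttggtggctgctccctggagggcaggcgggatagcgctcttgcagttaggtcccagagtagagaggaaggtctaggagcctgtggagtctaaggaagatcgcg
The P2ry10 window holds 1 TGTGGT and none of the other motifs, and the Ednra window holds none of them. TGTGGT is found in 16.8% of 32851 promoters in the reference and in 10.1% of the 69 promoters of 54 members that matched. CArG boxes are in 1.63% of all promoters and in 0 of the 69, and GGGCGG in 35.7% of all and 46.4% of the 69. A match or its lack describes these letters in this window only.

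Of the adrenergic receptors described here, Adrb1 was the highest in TPM. Adrb1, the beta receptor best known from the heart and also present on alveolar cells, had 10.6, 5.01 and 7.35 CPM, or 12.4 ± 4.1 TPM. Library 1 was the highest and library 2 the lowest.

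The constrictor alpha receptors were scarce. Adra1a had 8, 15 and 32 counts, Adra1d 1, 4 and 5 and Adra1b 0, 0 and 2, and for each of them library 3 was the highest. Of the presynaptic alpha receptors, Adra2a had 1.09 ± 0.506 CPM, Adra2c 0.687 ± 0.137 and Adra2b 0.327 ± 0.334. Adra2a lay above Adra2b in TPM in each library, by 1.53 ± 0.55 on the log2 scale, or 0.65 with a pseudocount of 1 TPM and 0.50 with TPM scaled over all genes. Adrb3, the beta receptor of fat, had 0, 2 and 5 counts.

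Both endothelin receptors were above 10 CPM. Ednrb (ENSMUSG00000022122, chromosome 14, 103814625 to 103844173), which clears endothelin and releases nitric oxide in endothelium, had 25.3, 25.9 and 38.5 CPM. Ednra (ENSMUSG00000031616, chromosome 8, 77663031 to 77724464), the constrictor receptor of smooth muscle, had 9.84, 12.1 and 14.7 CPM. Both were highest in library 3. Ednra had 12.4 ± 2.53 TPM and Ednrb 38.8 ± 9.06 TPM. The log2 ratio of Ednra to Ednrb was -1.71, -1.44 and -1.74 in libraries 1, 2 and 3 (mean -1.63 ± 0.16). Its size depended on gene length: the mean was -1.27 on CPM, without length, and -1.09 with the length of the longest transcript. Of 10 endothelial markers, 9 were highest in library 1, and Kdr (110, 73.0 and 113 CPM) was highest in library 3. The part of endothelial cells in the level of Ednrb was not tested. The ligand gene Edn1 had 228, 50 and 46 counts and its converting enzyme Ece1 had 91.8 ± 13.8 CPM.

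The angiotensin receptors themselves were near the limit of detection. Agtr1a, the constrictor form, had 11, 3 and 4 counts, Agtr1b, its rodent copy, had 0 in each library, and Agtr2, which opposes it, had 9, 0 and 6. Agtrap, which promotes internalisation of the angiotensin receptor, had 13.7, 18.1 and 20.1 CPM and held 90.2%, 98.6% and 96.1% of the TPM of these 4 genes. Ace, the enzyme that makes angiotensin and a product of lung capillary endothelium, had 6933, 2650 and 2951 counts, with library 1 the highest. Of 10 endothelial markers, 9 were also highest in library 1, and the part of these cells in the level of Ace was not tested.

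Of 8 prostanoid receptors, 6 had a mean of at least 1 CPM. Ptger4 (ENSMUSG00000039942, chromosome 15, 5206661 to 5244187), a relaxant receptor for prostaglandin E that is also abundant on leukocytes, had 35.2, 34.9 and 37.8 CPM, the smallest spread among the 9 members above 10 CPM (4.39% of the mean). It had 30.1 ± 1.39 TPM, and 14.4% of its 50-base words occur in other genes. Its relative Ptger2 had 69, 49 and 28 counts, and Ptger4 exceeded it by 3.42 ± 0.61 on the log2 scale. Tbxa2r, through which thromboxane constricts vessels and airways and aggregates platelets, had 100, 164 and 105 counts and 19.9 ± 6.55 TPM. The 6 platelet markers summed to 3.86, 3.6 and 7.41 CPM. Of these, Itga2b had 50, 56 and 75 counts, Pf4 4, 6 and 12, and Ppbp 0, 0 and 1; their part in the level of Tbxa2r was not tested.

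Ptgir, the prostacyclin receptor that relaxes vessels and stops platelets, had 23, 60 and 40 counts. It lay below Tbxa2r in each library, at a log2 ratio of -2.41 ± 0.38, or -1.60 on CPM, without length. Ptgfr, a constrictor receptor for prostaglandin F, had 42, 84 and 70 counts. Tbxa2r, Ptgir and Ptgfr were all highest in library 2 and lowest in library 1, the order by CPM of the summed contractile, pericyte and fibroblast markers. For the contractile sum, libraries 1 and 3 were close (214 and 226 CPM). With TMM factors of 0.951 and 1.07 for these libraries, which of them is the lowest there depends on the scaling. Single markers followed the order by CPM in part: 11 of 14 contractile, 4 of 10 pericyte and 4 of 10 fibroblast markers were highest in library 2. The part of these cells was not tested. Ptger3, which couples to Gi, had 0.809 ± 0.127 CPM and Ptgdr 0, 6 and 5 counts. The 2.06 ± 1.08 CPM of Ptger1, a calcium-linked receptor, are uncertain, since 63.3% of its words occur in other genes and 3875 of its 5459 exon bases lie opposite a gene on the other strand. Of the enzymes that make prostanoids, Ptgs1 had 2.90 ± 1.32 CPM, Ptgs2 7.46 ± 2.12 and the prostacyclin synthase Ptgis 12.2 ± 2.24, and Hpgd, which degrades prostaglandins, had 46.5 ± 20.3 CPM.

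Of 7 P2X channels, P2rx4 and P2rx7 stood above 10 CPM. P2rx4, found in endothelium and macrophages, had 23.2, 27.5 and 27.9 CPM, and P2rx7, the ATP-gated channel that activates the inflammasome of leukocytes, 18.9, 14.5 and 18.8 CPM. They had 20.8 ± 2.7 and 16.1 ± 1.63 TPM, and P2rx4 was the higher by 0.06, 0.68 and 0.33 on the log2 scale. That mean difference of 0.36 was 0.93 with the length of the longest transcript in place of all exons. P2rx1, the channel through which ATP from nerves constricts arteries, had 3, 11 and 18 counts and lay below P2rx4, at a log2 ratio of -4.21 ± 1.09, or -5.46 on CPM and -3.02 with TPM scaled over all genes. P2rx5 had 0.895 ± 0.336 CPM, P2rx6 0.438 ± 0.176, and the sensory channels P2rx2 and P2rx3 had 2 and 5 counts in all. The ectoenzymes that turn ATP into adenosine, Entpd1 and Nt5e, had 35.1 ± 6.15 and 24.9 ± 1.71 CPM.

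Adora2a was the leading adenosine receptor, and it dilates vessels and restrains T cells. It had 241, 179 and 241 counts, or 12.8, 9.75 and 14.3 CPM; library 3 was the highest in CPM, and library 1 by a little after TMM scaling (13.4 against 13.3). Adora2b had 23, 2 and 13 counts, so that library 2 was the lowest for both, and Adora2a exceeded it by 3.81 ± 1.43 on the log2 scale, or by 3.08 with a pseudocount of 1 TPM. Adora1 and Adora3 had at most 7 and 1 counts in a library.

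**Figure D2:**
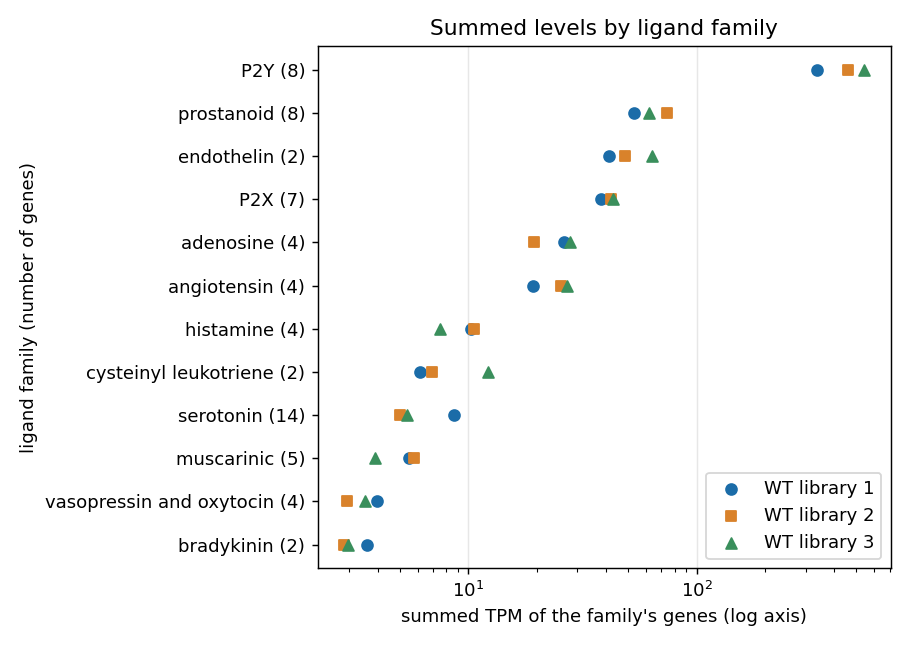
Summed TPM of the members of each of 12 ligand families on a log axis, with 1 point per WT library. P2Y receptors sum to 337 to 543 TPM, prostanoid receptors to 52.9 to 74.1 TPM, and bradykinin receptors are lowest with a mean of 3.14 TPM.

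The constrictor receptors for acetylcholine and histamine, Chrm3 and Hrh1, were each under 1 TPM. Chrm2, the muscarinic receptor that is the most abundant on airway muscle, had 96, 80 and 23 counts, and library 3 was the lowest. Chrm3, the one that triggers contraction, had 18, 8 and 10 counts. The log2 ratio of Chrm2 to Chrm3 in TPM was 2.33, 3.09 and 1.11, with a mean of 2.17, or 1.35 with a pseudocount of 1 TPM. Chrm1, Chrm4 and Chrm5 had 27, 6 and 4 counts in all. Hrh2, the histamine receptor of relaxation and gastric acid, had 9.37, 9.97 and 8.00 CPM, whereas Hrh1, the receptor of bronchoconstriction, had 6, 5 and 2 counts, at a log2 ratio to Hrh2 of -4.50 ± 0.39, or -2.88 with a pseudocount of 1 TPM. Of Hrh3 and Hrh4, each had counts in 1 library only.

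Of 14 serotonin receptors, 2 reached a mean of 1 CPM. Htr2a, the constrictor receptor of large vessels, had 53, 37 and 16 counts and Htr2b, implicated in pulmonary hypertension, 42, 11 and 19, so library 1 was the highest for both; 9.58% of the words of Htr2b occur in Psmd1. No member of the other 12 had over 7 counts in a library. Cysltr2, a leukotriene receptor of endothelium and eosinophils, had 39, 54 and 102 counts and was highest in library 3, whereas Cysltr1, the target of montelukast on airway muscle and leukocytes, had 41, 15 and 12 and was highest in library 1. Bdkrb1 and Bdkrb2, the inducible and the constitutive bradykinin receptor, had 17, 6 and 9 and 3, 18 and 11 counts. Oxtr had 0, 16 and 0 counts, all in library 2, and Avpr1a, the constrictor receptor for vasopressin, 0, 0 and 3. Avpr2, at 1.48 ± 0.501 CPM, is uncertain: 72.9% of its words occur in Arhgap4, which lies opposite it and had 93.5 ± 20.1 CPM.

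**Figure D3:**
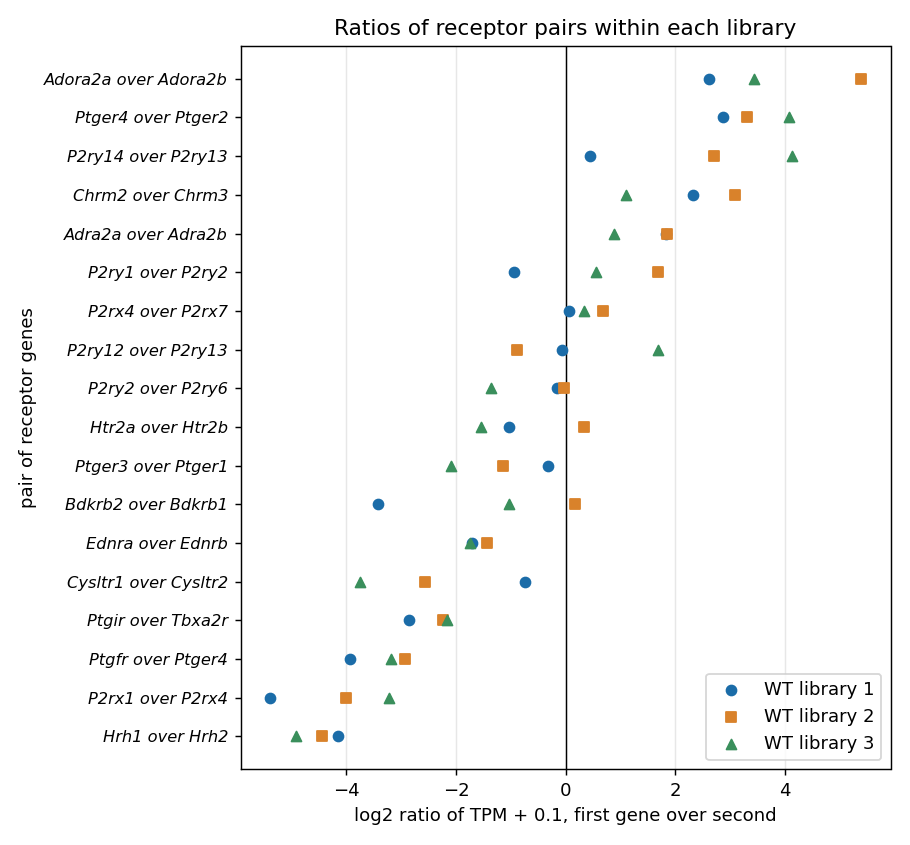
Log2 ratio of TPM + 0.1, first gene over second, in each WT library for 18 pairs in which at least 1 gene had a mean of 1 TPM. Ratios such as Ednra over Ednrb (-1.71, -1.44 and -1.74) differ little between libraries. Those of rarely counted genes such as Bdkrb2 over Bdkrb1 (-3.42, 0.17 and -1.04) are spread over both signs.

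Of 24 pairs of related receptors, 17 had the same sign of the log2 ratio in each of the 3 libraries. The smallest p that 3 libraries allow in an exact permutation of signs, taken two-sided, is 0.25, so these ratios carry no test. Among the pairs without a common sign were Htr2a to Htr2b at -0.75 ± 0.97 (0.56 on CPM, without length), P2ry12 to P2ry13 at 0.25 ± 1.31 and P2ry1 to P2ry2 at 0.43 ± 1.32.

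Receptors were grouped by the main G protein assigned to each here. P2ry4, a nucleotide receptor counted with Gi and not with Gq, had 0.0485 TPM, so its place hardly moves either sum. Gq receptors summed to 408, 553 and 649 TPM and Gs receptors to 169, 168 and 183. Ion channels summed to 38.1, 42.3 and 43.2 TPM and Gi receptors to 18.8, 17.3 and 13.3. The order was the same in the 3 libraries, but it rests on P2ry10, which had been placed with Gq although it is reported to signal mainly through RhoA-activating G proteins. Without P2ry10 the Gq sum was 86.9, 105 and 117 TPM, below the Gs sum in each library. The log2 ratio of Gs to Gq was -1.61 ± 0.29 with P2ry10 and 0.76 ± 0.17 without it. Without the highest member of each class it was -0.25 ± 0.25, so its direction depended on which members were counted. Of the 14 Gs receptors, 8 had a mean of at least 1 CPM, against 14 of 28 Gq receptors, 3 of 21 Gi receptors and 2 of 9 channels. Among Gq receptors P2ry10, Ednrb and Tbxa2r were the highest in TPM, and among Gi receptors P2ry14, Chrm2 and P2ry13. Among Gs receptors Ptger4 and Adora2a had at least 10 CPM.

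Members were also listed by the cells in which they are classically described. Of 20 receptors of smooth muscle, 10 had a mean of at least 1 CPM and 2, Ednra among them, of at least 10. Of 16 receptors of leukocytes, 11 had at least 1 CPM and 6 at least 10, among them P2ry10, Ptger4, P2rx4, P2rx7 and Adora2a. Leaving out the 2 genes in both lists, the median log2(TPM + 0.1) was -0.06 ± 0.49 over 18 smooth muscle receptors and 1.98 ± 0.26 over 14 leukocyte receptors, a difference of -2.53, -1.87 and -1.70 in libraries 1, 2 and 3. Endothelial receptors had a median of 1.32 ± 0.21 with 7 of 12 at 1 CPM or more, and 0 of 16 receptors of nerves reached 1 CPM. The median over all 73 members was -0.22 ± 0.13 and that over protein-coding genes 2.25 ± 0.10 on the same scale. The leukocyte list stood nearest the protein-coding median, and the lymphocyte and myeloid markers given above were present in each library; their part in these medians was not tested.

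Judged by the median gene, the machinery downstream of the receptors was more abundant than the receptors. The median log2(TPM + 0.1) was 4.66 ± 0.17 over G protein alpha subunits and 5.73 ± 0.16 over effectors. It was 5.14 ± 0.11 over kinases and arrestins, and -0.22 ± 0.13 over all members. Single genes departed from this: P2ry10, at 434 ± 106 TPM, lay by its mean above every gene of these 3 lists except Gnai2. In library 1 it also lay below Arhgef1, at 321 against 341 TPM. Of 13 G protein alpha subunits, 12 had a mean of at least 1 CPM, led in TPM by the inhibitory subunits Gnai2 at 590 ± 24.6 and Gnai3 at 134 ± 9.09 and by Gna13, an activator of RhoA, at 91.8 ± 13. Gnas, the Gs subunit, had 32.4 ± 0.518 TPM. Of the Gq family, Gna15 had 33.3 ± 7.95 TPM, Gnaq 27.5 ± 4.36, Gna11 26.8 ± 2.68 and Gna14 a mean of 2.35. Gna15 lay above Gnas in libraries 1 and 3 and below it in library 2. Gnaz was the lowest, at 1.14 ± 0.581 TPM. All 12 effectors of Gq and related G proteins had a mean of at least 10 CPM, with the guanine nucleotide exchange factor Arhgef1 at 383 ± 38.0 TPM, the calcium release channels Itpr3 and Itpr2 at 133 ± 15.6 and 102 ± 13.1, and phospholipase Plcb1 lowest at 6.24 ± 2.22. Of 7 kinases and arrestins that silence receptors, 6 had at least 10 CPM, led by Grk2 (listed as Adrbk1) at 323 ± 32.9 TPM, Grk6 at 202 ± 37.4 and Arrb2 at 96.9 ± 8.88, with Grk4 lowest at 5.71 ± 0.899. Of 37 genes that make or remove the ligands, 26 had at least 1 CPM, led in TPM by Ptges3 at 244 ± 12.5, Ace at 238 ± 118 and Hpgd at 152 ± 61.1. Ren1, Th and Kng2 had no count, and Chat, which makes acetylcholine, had 2 in all.

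Last, the 3 libraries were compared with each other. Of 49 members with at least 10 counts, 33, or 67.3%, varied between libraries beyond counting error (chi-square test of homogeneity, Benjamini-Hochberg adjusted p under 0.05 over 23317 genes), against 70.0% of all genes tested, a share close to that of all genes. Without library 1 the count was 16 of 42, against 38.2% of all genes, and without library 3 it was 21 of 43, against 56.8%. Among members with under 100 counts 16 of 29 varied, against 61.5% of such genes, among those with 100 to under 1000 counts 15 of 15 varied, against 69.4% of such genes, and among those with 1000 or more 2 of 5 varied, against 81.5%. P2ry10, the 1 member above 100 CPM, was 1.45-fold higher in library 3 than in library 1 after TMM scaling, with an adjusted p of 3.67e-60. Chrm2 differed by 4.20-fold between libraries 1 and 3 (adjusted p = 1.22e-09), Adrb1 by 2.18-fold between libraries 1 and 2 (adjusted p = 1.07e-09) and P2ry14 by 1.85-fold between libraries 2 and 3 (adjusted p = 1.65e-09), each named here with the higher library first. Ptger4 and P2rx4 were not called, with folds of 1.05 and 1.15 between the highest and the lowest library. With library totals in place of TMM factors P2rx4 was called, and Hrh2 and Avpr2 were not.

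Members that varied were highest in library 1 in 15 cases, in library 2 in 8 and in library 3 in 10, or 45.5%, 24.2% and 30.3%, against 40.2%, 31.4% and 28.4% of all genes called. Those highest in library 1, after TMM scaling, were P2ry2, P2ry6, P2ry12, P2ry13, Cysltr1, P2rx7, Adora2a, Adora2b, Adrb1, Ptger2, Chrm2, Htr2a, Htr2b, Agtr2 and Avpr2. Those highest in library 2 were Tbxa2r, Ptgir, Ptgfr, P2ry14, P2ry1, Hrh2, Bdkrb2 and Oxtr. In library 3 they were P2ry10, Ednrb, Ednra, Agtrap, Cysltr2, Ptger1, P2rx1, Adra1a, Adra2b and Chrm1. By CPM without TMM factors, summed myeloid, endothelial, alveolar and airway epithelial markers were highest in library 1. Summed contractile, pericyte and fibroblast markers were highest in library 2 and summed lymphocyte markers in library 3. Marker by marker, also by CPM without TMM factors, 8 of 12 myeloid, 9 of 10 endothelial and 5 of 15 lymphocyte markers were highest in library 1. So were 8 of 10 alveolar and 8 of 10 airway markers. In library 3, 4 of 12 myeloid, 5 of 10 pericyte, 6 of 10 fibroblast and 8 of 15 lymphocyte markers were highest. So were 2 of 10 alveolar and 2 of 10 airway markers, whereas 7 lymphocyte markers were lowest there. The receptors above were ordered after TMM scaling (factors 0.951, 0.983 and 1.07), so markers and receptors stand on unlike scales. The highest library of a marker with close values, such as Kdr (110, 73.0 and 113 CPM), can depend on the scale. Whether these cells account for the receptor levels was not tested. Since the 3 libraries share 1 label, this test shows only that they differ, not that a condition does.

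**Figure D4:**
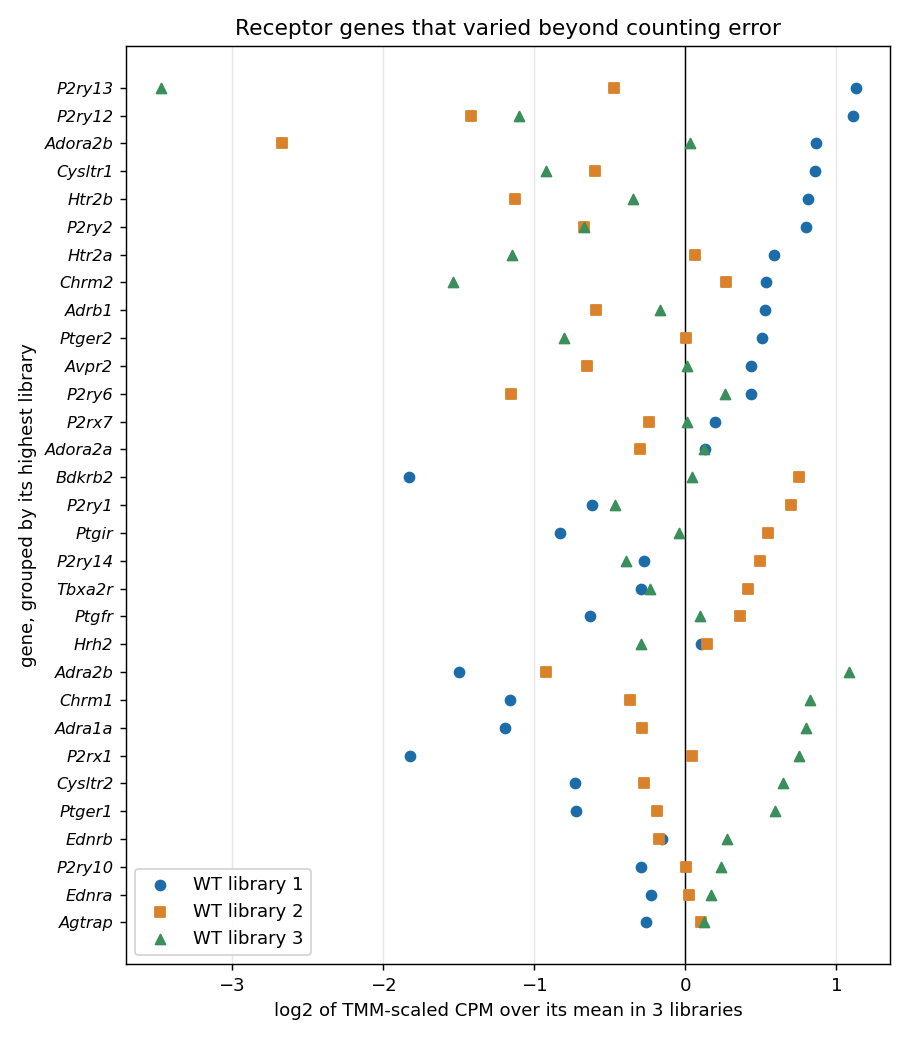
Log2 of TMM-scaled CPM in each WT library over the mean of the 3, for the 31 receptor genes that varied beyond counting error and had a count in every library, grouped by their highest library. Abundant genes such as P2ry10 lie close to 0 (1.45-fold between extremes), and rarely counted ones such as P2ry13 spread widely (24.1-fold). The selection shapes this difference, since a rarely counted gene is called only where its fold is large. Rarely counted genes with little spread, such as Adra2c (1.39-fold), were not called and are not shown.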

How the data were processed

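The authors' deposited table gives raw read counts per gene for 48709 mouse genes in 3 libraries. Per the submitters' processing notes, Trimmomatic 0.38, STAR 2.6.1d, featureCounts 1.6.3 and DESeq2 1.18.1 were used, but the sources used here do not give their settings or order. The notes name human builds, whereas gene IDs and coordinates are mouse: of 73 members, 57 had the coordinates of GENCODE M21 (GRCm38) exactly. Per the labels' protocols the libraries are stranded total RNA, so unspliced RNA is included. How reads were counted by strand is not given, and 20 members share exon bases with a gene on the other strand. Count columns, named as controls, were matched to WT libraries by number.

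Members and lists were chosen with earlier results of these data known. Every member may be named; genes outside the module are the 3 highest and the lowest of each list, or were chosen after their values were seen. CPM used library totals. TPM used union exon lengths of GENCODE M21 and were scaled over nuclear protein-coding genes, a choice made after seeing that short RNAs moved totals between libraries; ratios use a pseudocount of 0.1 TPM. Size factors of DESeq2 1.42.0 were an alternative scaling. Homogeneity was tested by chi-square with TMM factors of edgeR 4.0.16 (R 4.3.3) in genes with at least 10 counts. The test was checked on simulated counts that, apart from genes changed on purpose, held counting error only. That check cannot tell how the test behaves where all libraries spread beyond counting error. With 1 group no quasi-likelihood contrast exists. A word counts as shared where its 50 bases also occur in a transcript of a different gene. Library totals of 16877297 to 18896263 counts set the precision. Alternatives were other scalings, thresholds, pseudocounts, gene lengths and leaving out each library. Scripts ran in Python 3.11.15 with scipy 1.17.1. Results on a few genes are not reported here, and figures leave them out.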

Additional observations from a re-analysis of the deposited data

How the results depend on the processing

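The count of members with a mean of at least 1 CPM was 28. It ranged from 19 (1 CPM in every library) to 39 (a mean of 0.5 CPM), and from 24 to 28 when each library was left out in turn. The count of members that varied between libraries was 33. It was 35 with library totals, 33 with DESeq2 size factors, 37 with no minimum beyond 1 count and 29 with a minimum of 30 counts. It ranged from 16 (without library 1) to 22 when 1 library was left out, where fewer libraries and fewer genes are tested. The count of pairs with 1 sign was 17, from 15 to 17 under the other settings and from 18 to 20 when 1 library was left out.

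The log2 ratio of Gs to Gq receptors was -1.61. It was -0.25 without the highest member of each class and 0.76 without P2ry10, an alternative chosen after seeing the data, and from -1.77 to -1.49 when 1 library was left out. The median difference of smooth muscle minus leukocyte receptors was -2.03. It was -1.37 with a pseudocount of 1 TPM, -2.65 on CPM and, as an alternative chosen after seeing the data, -1.17 with TPM scaled over all genes, and from -2.20 to -1.79 when 1 library was left out. The cause of these shifts was not tested. No paired analysis was possible because there was only 1 group. Genes under the level of 3 counts cannot be ordered at this depth.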
